A study of Homo sapiens with 6 samples.

Results

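The transcripts of 10 imprinted genes (H19, IGF2, MEG3, DLK1, PEG3, PEG10, MEST, SNRPN, CDKN1C and NNAT) were followed in 6 RNA-seq libraries of cells labelled H1650, an established human lung adenocarcinoma cell line. The genes were found by their symbols in a table of 15897 genes, which lists 6 of the 10. MEG3, DLK1, PEG3 and NNAT are not listed and have no value in either group. Of the 6 listed genes, 4 (SNRPN, PEG10, IGF2 and CDKN1C) had a mean of at least 0.5 FPKM over the 6 libraries and were tested, while H19 and MEST lay below this level. FPKM is a count of fragments set relative to the length of the gene and to the depth of the library. The libraries were 3 of wild-type cells, labelled control, and 3 of cells labelled shSETD2, in which an shRNA against the histone H3K36 methyltransferase SETD2 was meant to lower its level. The methods describe stable lentiviral lines and 3 shRNA constructs, and the labels do not say which construct an shSETD2 library carried.

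An imprinted gene is expressed from only the maternal or only the paternal copy of a chromosome. Most lie in clusters, in which a differentially methylated stretch of DNA, the imprinting control region, sets which copy is read. The methylation of the silent copy is laid down in the germ line and is kept in the embryo by zinc finger proteins that recruit TRIM28 and by the maintenance methyltransferase DNMT1. Many imprinted genes act on growth before birth, and their expression falls in most adult tissues and varies widely among cancer cell lines. RNA amounts per gene do not tell the maternal from the paternal copy, so the imprint itself was not measured here.

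Some features of the libraries bear on every value below. SETD2 was at 17.99, 10.2 and 17.6 FPKM in the 3 controls, in order, against 8.97, 8.09 and 12.2 FPKM in the shSETD2 libraries, so the groups overlapped (adjusted p = 0.0641), and the libraries are named by their labels throughout. The groups differed widely, with Pearson's r of log2(FPKM + 1) across genes of at least 0.985 within a group and at most 0.761 between groups. Of 12 markers of lung epithelium, 9, the surfactant genes among them, are not listed, and NKX2-1 was at 1.44 to 1.80 FPKM in the control libraries and listed at 0 in the shSETD2 libraries. All 3 listed lung markers were tested, with 2 higher and NKX2-1 lower. The 2 higher were MUC1, with means of 0.639 FPKM in the control and 2.65 FPKM in the shSETD2 libraries, and LAMP3, with 0.584 and 1.23 FPKM. The 3 summed to 2.56 to 3.11 FPKM in the control and to 3.36 to 4.19 FPKM in the shSETD2 libraries. Of 13 genes of renal lineage and of embryonic kidney lines, 12 were tested, 5 higher and 7 lower in the shSETD2 libraries. They summed to 124.2 to 128.5 FPKM in the control and to 79.6 to 87.8 FPKM in the shSETD2 libraries. LIN28B, NEFL, NEFM, INA, SIX2, SALL1 and EYA1 were listed at 0 in every shSETD2 library. Of 11 general epithelial markers 9 are listed, with 5 tested, 4 higher and 1 lower. The 9 summed to 14.4 to 16.4 FPKM in the control and to 406.1 to 458.9 FPKM in the shSETD2 libraries. KRT7, KRT8 and KRT18 made up most of the shSETD2 sum, with means of 81.9, 93.9 and 254.6 FPKM. CDH1, the 1 lower, fell from a mean of 1.27 to 0.0120 FPKM. Of 10 mesenchymal markers 6 are listed, with 1 higher and 2 lower of 3 tested. The 6 summed to 68.7 to 85.8 FPKM in the control and to 130.1 to 139.0 FPKM in the shSETD2 libraries. VIM made up most of both sums, at means of 66.5 and 132.4 FPKM, and COL1A1 and ACTA2 were the 2 lower. Among all genes tested, 26.8% were called higher and 51.8% lower. Of 9 blood and endothelial markers 2 are listed, with sums under 1 FPKM in every library, and 0 were tested. These differences between the groups run alongside every result below, and their part in the imprinted genes was not tested. The labels name H1650 for all 6 libraries, but whether both groups are the same cell line was not tested here. If they are not, a difference between lines and a difference due to the shRNA cannot be told apart in any value below.

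Promoter sequences are shown first, since imprinting acts through CpG methylation. RefSeq windows of 300 bases, from 250 bases before to 50 bases after a transcription start, were found for 4 of the 10 genes (H19, MEG3, MEST and SNRPN) and not for IGF2, DLK1, PEG3, PEG10, CDKN1C and NNAT. SNRPN and SNURF share a start and hence 1 window, which is shown with those of NAP1L5, which was also higher in the shSETD2 libraries, and of PLAGL1 and FAM50B, which were lower. These were picked as examples of each direction after their values were seen, and are not the only imprinted genes with a window and groups that did not overlap. PLAGL1 and the noncoding HYMAI also share a window. Each is written 5′ to 3′ on the strand of the gene, with every CpG in capitals.
SNRPN and SNURF, plus strand, chr15:24954737-24955036 in GRCh38: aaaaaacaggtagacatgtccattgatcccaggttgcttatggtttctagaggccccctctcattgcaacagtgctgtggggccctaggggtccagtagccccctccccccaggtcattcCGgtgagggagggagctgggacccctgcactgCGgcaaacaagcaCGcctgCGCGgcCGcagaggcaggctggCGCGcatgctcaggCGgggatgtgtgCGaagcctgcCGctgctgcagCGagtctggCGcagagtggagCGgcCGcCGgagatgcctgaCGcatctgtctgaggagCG
NAP1L5, minus strand, chr4:88697780-88698079 in GRCh38: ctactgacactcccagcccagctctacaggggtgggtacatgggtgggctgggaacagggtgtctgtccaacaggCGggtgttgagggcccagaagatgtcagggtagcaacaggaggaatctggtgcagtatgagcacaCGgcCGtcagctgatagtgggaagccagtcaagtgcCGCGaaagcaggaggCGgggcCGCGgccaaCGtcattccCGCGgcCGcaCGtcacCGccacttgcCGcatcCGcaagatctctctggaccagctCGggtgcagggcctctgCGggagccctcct
PLAGL1 and HYMAI, minus strand, chr6:144008210-144008509 in GRCh38: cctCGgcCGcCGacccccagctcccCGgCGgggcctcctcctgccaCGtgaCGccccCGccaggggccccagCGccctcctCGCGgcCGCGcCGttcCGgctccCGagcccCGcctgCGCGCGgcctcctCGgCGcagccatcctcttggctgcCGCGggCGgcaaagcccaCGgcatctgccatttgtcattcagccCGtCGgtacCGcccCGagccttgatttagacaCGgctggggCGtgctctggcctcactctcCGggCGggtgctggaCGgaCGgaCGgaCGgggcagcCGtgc
FAM50B, plus strand, chr6:3849123-3849422 in GRCh38: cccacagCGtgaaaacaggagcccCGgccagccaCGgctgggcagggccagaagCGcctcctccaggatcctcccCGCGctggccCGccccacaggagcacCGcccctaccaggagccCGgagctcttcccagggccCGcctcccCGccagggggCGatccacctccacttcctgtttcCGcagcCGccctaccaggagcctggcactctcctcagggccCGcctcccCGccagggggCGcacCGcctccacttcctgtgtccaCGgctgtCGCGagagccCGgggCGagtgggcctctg
Where a gene had several windows, the one richest in CpG is given. Matched to GRCh37, the build of the expression table, the window of SNRPN and SNURF has 1 perfect match, at chr15:25199884-25200183, and its start lies at 25200134, beside the start of SNURF in the table at 25200133. The window holds 18 CpG, more than 55.7% of the 34943 promoter windows of RefSeq, whose median is 14. Those of NAP1L5, FAM50B and PLAGL1 hold 18, 23 and 39 CpG. The other 3 windows of SNRPN hold 7, 2 and 11, and the window of H19 holds 6.

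Of the 4 tested genes, SNRPN and PEG10 were higher in the shSETD2 libraries, CDKN1C was lower and IGF2 was not called. Calls were common among all 14068 genes tested, of which 78.6% passed the same threshold, 26.8% higher and 51.8% lower in the shSETD2 libraries. The groups did not overlap for 3 of the 4 genes and for 80.9% of all genes tested, with the shSETD2 libraries above for 27.9% and the control libraries above for 53.0%. A count of 3 calls among 4 genes is therefore close to the share among all genes. SNRPN, PEG10 and CDKN1C also reached the level for testing through 1 group only. The means in the other group were 0 FPKM for SNRPN and 0.106 FPKM for PEG10 (control), and 0.279 FPKM for CDKN1C (shSETD2). H19 and MEST, low in both groups, were left out by the same filter, so nothing is drawn from this count.

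SNRPN and its cluster on chromosome 15 showed the widest separation among the 10 genes. SNRPN, which encodes the small nuclear ribonucleoprotein SmN and is expressed from the paternal copy, was listed at 0 in control libraries 1, 2 and 3. In shSETD2 libraries 1 to 3 it was at 12.3, 13.37 and 12.9 FPKM, a mean of 12.8 ± 0.549 (SD, n = 3). No signal was thus listed in any control library, while the shSETD2 libraries lay close together, above 81.8% of all listed genes. On the log2(FPKM + 1) scale the difference was 3.79 (standard error 0.054, adjusted p = 3.13e-08 from limma with Benjamini-Hochberg adjustment over 14068 genes). This difference is no fold change, since one group is at 0, and it was 10.33 with a pseudocount of 0.01 in place of 1. SNRPN (ENSG00000128739.21_3) spans 25068784 to 25223870 on the plus strand of chromosome 15 in GRCh37.

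**Figure D1:**
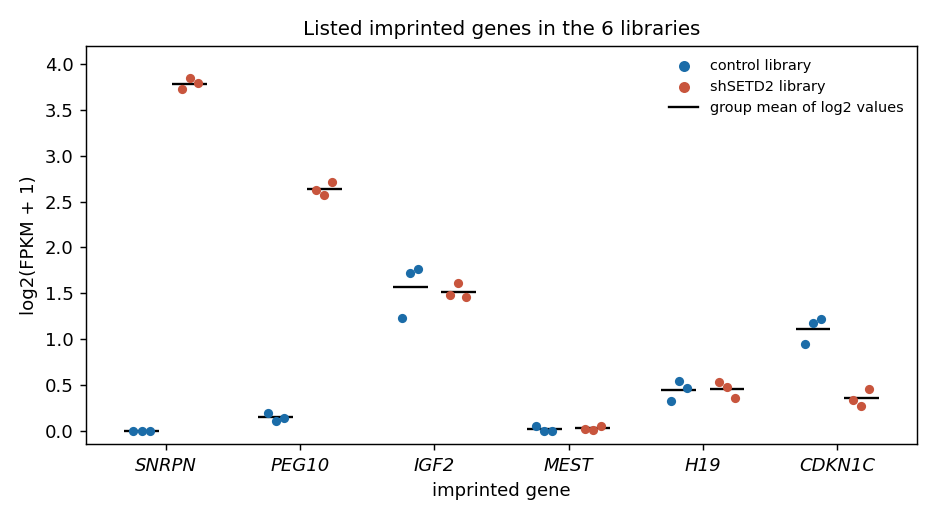
FPKM of the 6 listed imprinted genes on the log2(FPKM + 1) scale, 1 point for each library, control on the left and shSETD2 on the right of each gene, with a bar at the group mean of the log2 values. SNRPN and PEG10 stand apart in the shSETD2 libraries, CDKN1C is higher in every control library, and IGF2, H19 and MEST overlap.

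The genes that follow SNRPN on the same strand showed the same pattern. SNURF (25200133 to 25222997), which encodes a short protein from the upstream exons of the SNRPN transcript, was listed at 0 in every control library and at 2.83, 0.798 and 0.449 FPKM in shSETD2 libraries 1 to 3. SNURF and SNRPN overlap on the same strand, and how reads were divided between them is not known. The spread of SNURF among the shSETD2 libraries was wide, and the adjusted p of its log2 difference of 1.11 was 0.0233, and 0.0597 to 0.0774 with an ordinary linear model or without any 1 control library. SNHG14 (25223730 to 25664609), the long noncoding host transcript of the small nucleolar RNAs of the Prader-Willi region, was at 0.994, 1.11 and 0.945 FPKM in the shSETD2 libraries and at most 0.00628 FPKM in a control library. PWAR6, a long noncoding RNA inside that unit, was at 1.06, 1.05 and 0.946 FPKM in the shSETD2 libraries against at most 0.0197 FPKM in a control library. The adjusted p-values of SNHG14 and PWAR6 were 7.12e-06 and 5.97e-06. Each of these transcripts was on in all shSETD2 libraries and at or near 0 in all control libraries. PWAR6 lies within SNHG14 on the same strand, so the reads of PWAR6 and SNHG14 cannot be told apart with certainty.

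The cluster did not move as a whole. MKRN3 (23810825 to 23875222), a paternally expressed gene upstream of SNRPN that encodes a makorin ring finger protein, went the other way, at 0.513, 0.616 and 0.540 FPKM in the 3 controls, in order, and listed at 0 in every shSETD2 library. Its mean over the 6 libraries was below 0.5 FPKM, so it was not tested. MAGEL2, NDN, NPAP1, IPW, PWAR1 and ATP10A of the same region are not listed. UBE3A (25578875 to 25684203, minus strand), which encodes a ubiquitin ligase and is expressed from the maternal copy in neurons and from both copies elsewhere, was at 7.02, 6.35 and 6.85 FPKM in the control libraries and at 5.44, 5.91 and 4.22 FPKM in the shSETD2 libraries. The lowest control library was above the highest shSETD2 library, but the fall of UBE3A, -0.33 on the log2 scale (standard error 0.11, adjusted p = 0.0304), was close to the median of all genes tested, -0.29. With each library scaled by its median ratio to the geometric mean it was -0.03 with an adjusted p of 0.829. SNHG14 runs antisense over UBE3A, and the libraries were made with a stranded kit, but whether strand was used in quantification is not given in the sources used here.

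**Figure D2:**
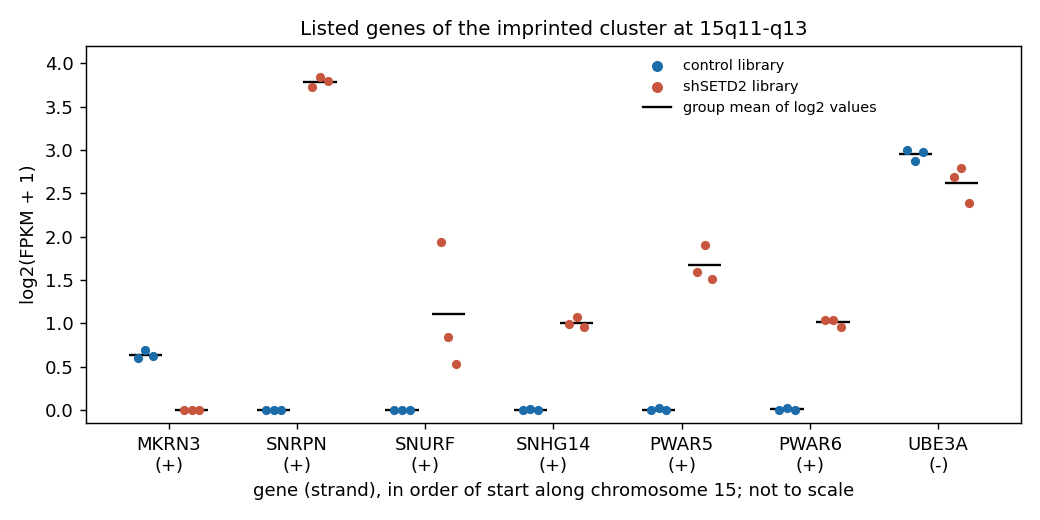
Genes of the imprinted cluster at the start of the long arm of chromosome 15 (the AC124312 genes are not drawn), in the order of their starts and with their strand, on the log2(FPKM + 1) scale, with 1 point for each library and a bar at the group mean of the log2 values. From SNRPN to PWAR6 the control libraries lie at or near 0 and the shSETD2 libraries above them, MKRN3 shows the reverse, and UBE3A is present in both groups.

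Other listed genes that start within 500 kb of SNRPN, none of them in the lists of imprinted genes, were 5 in number, all on the plus strand. The nearest, AC124312.1 (25200181 to 25245423), starts within SNRPN beside the start of SNURF and overlaps both. Its reads cannot be told from theirs with certainty. The other 4 start beyond the end of SNRPN, within the span of SNHG14 and on its strand, and AC124312.4 overlaps PWAR5. Their reads can likewise not be told from those of SNHG14 with certainty, so they may not be separate transcripts. AC124312.1 was at 0.762, 0.343 and 1.10 FPKM in the shSETD2 libraries and at most 0.0124 FPKM in a control library. The 4 that were tested, PWAR5, AC124312.3, AC124312.4 and AC124312.5, were all higher in the shSETD2 libraries, with a median log2 difference of 1.54. Of all genes tested, 26.8% were higher. These 4 were named after their values were seen. PWAR5 was at 2.02, 2.75 and 1.84 FPKM in the shSETD2 libraries and at most 0.0145 FPKM in a control library, and AC124312.3 was at 5.29, 5.40 and 5.15 FPKM against 0 in each control library.

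PEG10 was the other tested gene of the 10 that rose. PEG10 derives from a retrotransposon, is expressed from the paternal copy and is needed for the placenta. It was at 0.142, 0.0777 and 0.0987 FPKM in the 3 controls, in order, and at 5.16, 4.96 and 5.54 FPKM in shSETD2 libraries 1 to 3. The means were 0.106 ± 0.0330 and 5.22 ± 0.295 FPKM (SD, n = 3), and every shSETD2 library was far above every control library. On the log2 scale PEG10 rose by 2.49 (standard error 0.061, adjusted p = 2.00e-07), and by 5.53 with a pseudocount of 0.01. SGCE, which encodes ε-sarcoglycan, is paternally expressed and starts on the opposite strand next to PEG10. On chromosome 7 SGCE ends at 94285521 and PEG10 begins at 94285637, head to head. SGCE was at 7.63, 7.10 and 8.14 FPKM in the control and at 15.1, 14.8 and 15.4 FPKM in the shSETD2 libraries, 1.98-fold higher by the means (log2 fold change 0.90, standard error 0.057, adjusted p = 1.23e-05). Both genes of the pair thus rose, from a level near 0 for PEG10 and from a clear level for SGCE. PPP1R9A, a neurabin gene further along, was at 1.43, 1.42 and 1.495 FPKM against 1.44, 0.835 and 1.08 FPKM, with overlap (log2 fold change -0.22, adjusted p = 0.102). Without shSETD2 library 1 the adjusted p was 0.0145. CASD1, the nearest gene on the other side and the single listed neighbour of PEG10 outside the imprinted lists, changed by -0.07 on the log2 scale (adjusted p = 0.476).

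CDKN1C, which encodes the CDK inhibitor p57 and is expressed from the maternal copy, was the 1 gene called lower among the 4 tested, although IGF2 was also called lower without control library 1. It was at 0.929, 1.26 and 1.32 FPKM in the 3 controls, in order, and at 0.262, 0.203 and 0.372 FPKM in shSETD2 libraries 1 to 3. The groups did not overlap, although both lay low, above 23.3% and 16.8% of the listed genes by their means. CDKN1C fell by 0.76 on the log2 scale (standard error 0.094, adjusted p = 3.34e-04). The change was -2.05 with a pseudocount of 0.01 and -0.29 after quantile normalization (adjusted p = 0.0345).

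The other listed genes of the cluster of CDKN1C on chromosome 11 went in both directions. PHLDA2 (2949503 to 2950685), a maternally expressed gene that restrains placental growth, was at 4.87, 5.60 and 4.55 FPKM in the control libraries and at 60.2, 54.4 and 60.1 FPKM in the shSETD2 libraries. It was 11.6-fold higher by the means (log2 fold change 3.30, standard error 0.079, adjusted p = 1.76e-07), while its close neighbour CDKN1C fell. SLC22A18 (2920951 to 2946476), a transporter gene that lies between them, was at 0.592, 0.393 and 0.657 FPKM in the control and 1.39, 1.19 and 1.42 FPKM in the shSETD2 libraries (log2 fold change 0.59, adjusted p = 7.20e-04). KCNQ1, a potassium channel gene, was at 0.858, 0.468 and 0.733 FPKM in the control libraries and listed at 0 in every shSETD2 library, and was below the level for testing. KCNQ1OT1, the noncoding RNA of the imprinting control region of this cluster, is not listed. The nearest listed genes outside the imprinted lists were NAP1L4, which fell with a log2 fold change of -0.67 (adjusted p = 9.89e-06), and TSSC4, at -0.17 (adjusted p = 0.428).

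H19 and IGF2 form a second cluster on chromosome 11, in which CTCF bound to the unmethylated control region keeps the enhancers with H19 on the maternal copy. H19, a maternally expressed long noncoding RNA that hosts a microRNA, was at 0.254, 0.458 and 0.381 FPKM in the 3 controls, in order, and at 0.442, 0.391 and 0.280 FPKM in shSETD2 libraries 1 to 3. The shSETD2 libraries lay within the range of the controls, with means of 0.364 ± 0.103 and 0.371 ± 0.0828 FPKM (SD, n = 3). H19 was below the level for testing, and with no filter on low values its log2 difference was 0.01 with an adjusted p of 0.931. IGF2, which encodes the growth factor IGF-II and is expressed from the paternal copy, was at 1.34, 2.29 and 2.40 FPKM in the control and at 1.79, 2.06 and 1.75 FPKM in the shSETD2 libraries. All 3 shSETD2 libraries lay between control library 1 and the other control libraries. IGF2 changed by -0.05 on the log2 scale (standard error 0.15, adjusted p = 0.754), smaller in size than that of all but 4.71% of the genes tested. Control library 1 bore on this value, since without it the change was -0.23 (adjusted p = 0.0384). The nearest gene to H19, LINC01219, was at 1.01, 1.76 and 1.12 FPKM in the control libraries and listed at 0 in every shSETD2 library, and on the far side of IGF2 CD81 fell by 0.63 on the log2 scale (adjusted p = 8.06e-04).

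MEST, a paternally expressed gene of the α/β-hydrolase family on chromosome 7, was near 0 in both groups. It was at 0.0385, 0 and 0 FPKM in the 3 controls, in order, and at 0.0140, 0.00630 and 0.0345 FPKM in shSETD2 libraries 1 to 3, so no difference could be seen at this level, and with no filter its adjusted p was 0.795. MESTIT1, the antisense transcript from the same region, is not listed, nor is KLF14. CPA4, a carboxypeptidase gene nearby, was at 0.0727, 0.0656 and 0.0251 FPKM in the control and at 0.865, 0.864 and 0.793 FPKM in the shSETD2 libraries, below the level for testing. CEP41, the nearest gene on the other side, was not called (adjusted p = 0.313). COPG2, the next listed gene beside MEST and antisense to it, encodes a coatomer subunit and was well expressed in both groups, at 21.1 to 21.3 FPKM in the control and 11.5 to 12.9 FPKM in the shSETD2 libraries, lower by the test (log2 fold change -0.74, adjusted p = 1.81e-05). Of the 8 neighbours of MEST tested, 3 were higher and 2 lower, against 26.8% and 51.8% of all genes tested. The 3 include AC016831.1, named after its values were seen, which rose from 0.414 to 22.98 FPKM by the means (log2 fold change 4.08, adjusted p = 3.88e-08).

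For the 4 genes that are not listed, the surroundings can still be described. MEG3, a maternally expressed long noncoding RNA, and DLK1, which encodes a transmembrane ligand related to those of Notch, lie side by side on chromosome 14 at 101245747 to 101327368 and 101192042 to 101204561 in the annotation of GRCh37. RTL1, MEG8 and MEG9 of the same cluster are not listed either. DIO3, the deiodinase gene at its far end, was at 0.258, 0.111 and 0.147 FPKM in the control libraries and listed at 0 in every shSETD2 library. The nearest listed gene, BEGAIN, was at 0.444, 0.390 and 0.231 FPKM in the control libraries and at most 0.0174 FPKM in an shSETD2 library. PEG3, a paternally expressed zinc finger gene on chromosome 19 (57321445 to 57352096), had 13 listed neighbours within 500 kb. Of these, 10 were tested, 8 of them lower and 0 higher in the shSETD2 libraries, with a median log2 fold change of -0.79. Among all genes tested, 51.8% were lower and 26.8% higher. ZFP28, ZNF470 and ZNF582, zinc finger genes named after their values were seen, were above 1 FPKM in every control library and at most 0.00899 FPKM in an shSETD2 library. The nearest listed genes on either side of PEG3, AC007228.2 and ZNF264, were not tested and not called. ZIM2 and MIMT1, which share its cluster, are not listed. ZNF331, an imprinted zinc finger gene on the same chromosome arm, rose from 0.689 ± 0.153 to 1.83 ± 0.325 FPKM (SD, n = 3, adjusted p = 7.53e-04). NNAT, which encodes neuronatin, lies within BLCAP on chromosome 20 (36149608 to 36152092), and its host gene BLCAP rose from 4.54 ± 0.159 to 7.37 ± 0.788 FPKM (SD, n = 3, adjusted p = 4.66e-04). Of 7 listed neighbours of NNAT 6 were tested and 5 were higher, against 26.8% of all genes tested. SRC, the gene of a tyrosine kinase, was among the 5, with a log2 fold change of 1.07. AL109614.1, the nearest on the other side, was not called (adjusted p = 0.958). Around all 10 genes, 53 neighbours outside the imprinted lists were listed and 47 tested, with 15 higher and 19 lower. The 15 include the 4 tested neighbours of SNRPN, which lie within SNHG14 and may not be separate transcripts. The shares among all genes tested were 26.8% and 51.8%, and the median log2 fold change of the neighbours, -0.26, was near that of all genes.

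Beyond the 10, a list of 56 other genes taken as imprinted in human was examined. Imprinting is limited for some genes of the list, as for UBE3A to neurons and for IGF2R to some people. The table lists 31 of the 56, and 24 were tested, with 14 higher, 7 lower and 3 not called in the shSETD2 libraries. Among all genes tested, 26.8% were higher and 51.8% lower. The median log2 fold change of the 24 was 0.38, against -0.29 for all genes tested. These counts depend on the filter, since with no filter on low values 15 were higher and 13 lower. Some genes passed it through 1 group only, as SNURF, SNHG14 and PWAR6 of 1 cluster did through the shSETD2 libraries, and PLAGL1 and FAM50B through the controls. SNHG14 and PWAR6 are each counted here, though they may not be separate transcripts. Of those left untested, KCNQ1, DIO3, MKRN3, HYMAI, GPR1 and ZNF597 were higher in every control library and CPA4 in every shSETD2 library. Together with the 4 tested genes of the first list, 16 of 28 were higher and 8 lower, and the median size of the log2 fold change was 0.85 against 0.63 for all genes tested. With the parent of origin written down for 28 of these genes after their values were known, 7 of 12 tested paternally expressed genes were higher and 4 lower, and 2 of 5 maternally expressed genes were higher and 2 lower. Both directions thus occurred in both classes.

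**Figure D3:**
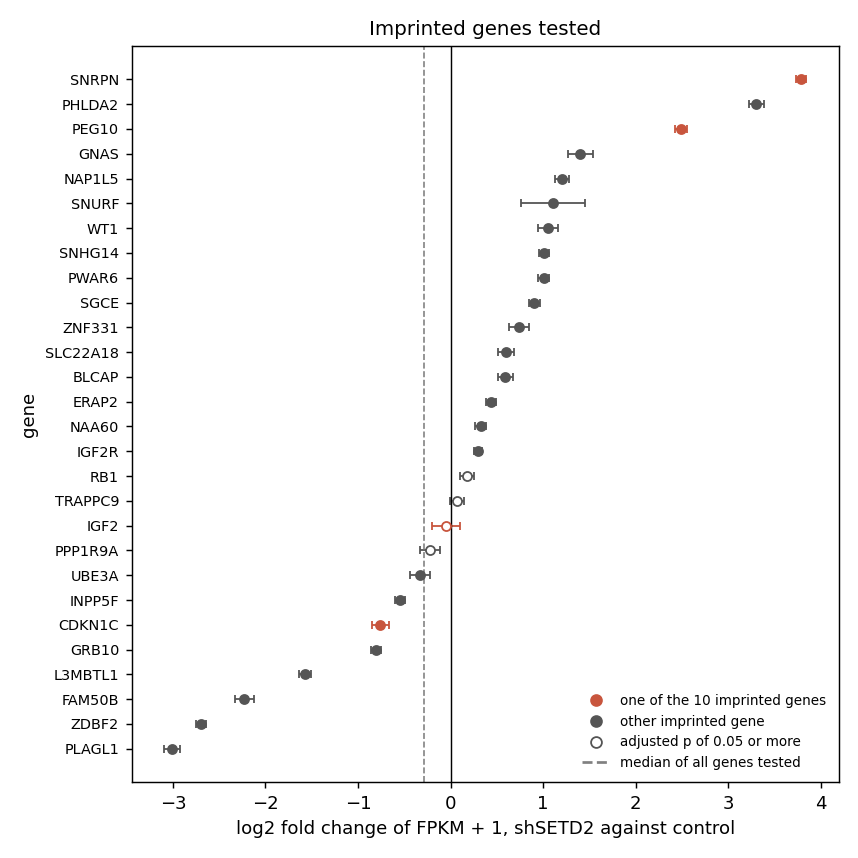
Log2 fold change of FPKM + 1 with its standard error for the 28 imprinted genes tested, shSETD2 against control. Filled points have an adjusted p under 0.05, the dashed line marks the median of all genes tested at -0.29, and the values run from -3.01 for PLAGL1 to 3.79 for SNRPN.

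The genes that fell most included several at or near 0 in the shSETD2 libraries. PLAGL1, which encodes a zinc finger regulator of growth arrest and is expressed from the paternal copy, was at 7.65, 7.53 and 6.17 FPKM in the 3 controls, in order, and at 0.00755, 0 and 0 FPKM in shSETD2 libraries 1 to 3 (log2 difference -3.01, standard error 0.085, adjusted p = 3.52e-07). HYMAI, the noncoding RNA with the same start as PLAGL1 in the window shown above, was at 0.0829, 0.150 and 0.131 FPKM in the control libraries and at most 0.0193 FPKM in an shSETD2 library. HYMAI was below the level for testing and lies within PLAGL1 on the same strand, so its reads cannot be told from those of PLAGL1 with certainty. PLAGL1 has several promoter windows, and 1 value per gene cannot tie its fall to the window it shares with HYMAI. FAM50B, a paternally expressed retrogene, was at 3.24, 4.57 and 3.65 FPKM in the control and at 0.0341, 0 and 0.0344 FPKM in the shSETD2 libraries (adjusted p = 3.28e-06). ZDBF2, a zinc finger gene, was at 14.3, 15.02 and 14.5 FPKM against 1.33, 1.54 and 1.35 FPKM, 10.4-fold lower by the means (log2 fold change -2.70, adjusted p = 1.04e-07). L3MBTL1, a chromatin reader gene, was 10.6-fold lower by the means (log2 fold change -1.57, adjusted p = 1.41e-06). HYMAI was named after its values were seen.

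Of the genes outside the clusters of the 10 that rose, GNAS and NAP1L5 showed the largest log2 fold changes. GNAS, which encodes the α subunit of the stimulatory G protein and several imprinted transcripts, was at 18.8, 28.2 and 23.2 FPKM in the control and at 61.4, 60.4 and 66.3 FPKM in the shSETD2 libraries (log2 fold change 1.40, standard error 0.14, adjusted p = 1.02e-04). The table gives 1 value for the whole locus, so the imprinted transcripts of GNAS cannot be told from the others. NAP1L5, a retrogene of the nucleosome assembly family, was at 0.228, 0.0769 and 0.134 FPKM against 1.64, 1.51 and 1.76 FPKM (log2 fold change 1.20, adjusted p = 1.04e-05). Complete separation by presence was rare. At least 1 FPKM in each shSETD2 library with less than 0.1 in each control was found for 1 of the 37 listed imprinted genes, SNRPN, and for 1.74% of all listed genes. The reverse was found for 2 of 37, PLAGL1 and FAM50B, and for 3.94% of all listed genes. Listed at 0 in every shSETD2 library but not in the controls were 5 of 37 (KCNQ1, DIO3, MKRN3, GPR1 and ZNF597) against 4.57% of all listed genes, and at 0 in every control library only were 2 of 37 (SNRPN and SNURF) against 1.75%. GPR1 and ZNF597 were named after their values were seen.

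The RNA of most genes whose proteins set, keep or erase imprints was lower in the shSETD2 libraries. Of 15 such genes 13 were tested, 10 lower, 1 higher and 2 not called, where 51.8% of all genes tested were lower and 26.8% higher, with a median log2 fold change of -0.62 against -0.29 for all genes. ZFP57, a zinc finger protein that binds methylated control regions, and DNMT3L, a cofactor of methylation in germ cells, are not listed. ZNF445, which binds imprinted regions as ZFP57 does, fell from 6.601 ± 2.66 to 2.43 ± 0.113 FPKM, TRIM28, the corepressor they recruit, from 65.1 ± 1.24 to 37.3 ± 1.85 FPKM, and SETDB1, the H3K9 methyltransferase that TRIM28 brings, from 9.05 ± 0.241 to 3.78 ± 0.124 FPKM (SD, n = 3). The adjusted p-values were 4.13e-03, 8.18e-06 and 2.65e-06. The maintenance methyltransferase DNMT1 fell from 27.8 ± 0.136 to 17.8 ± 0.675 FPKM, and the de novo enzymes DNMT3A and DNMT3B fell from 5.19 ± 0.612 to 1.59 ± 0.0973 and from 9.25 ± 0.997 to 3.17 ± 0.410 FPKM (SD, n = 3). TET1, a dioxygenase that oxidizes methylated cytosine, showed the largest difference of the list, at 12.9, 13.5 and 13.2 FPKM in the control and 0.418, 0.399 and 0.286 FPKM in the shSETD2 libraries (log2 fold change -3.38, adjusted p = 6.12e-08). CTCF was at 19.2, 19.1 and 19.6 FPKM against 19.9, 20.1 and 20.2 FPKM, a change of 0.05 on the log2 scale (standard error 0.036, adjusted p = 0.227). UHRF1, the 1 regulator called higher, rose from 19.5 ± 0.0717 to 24.6 ± 0.947 FPKM (SD, n = 3, adjusted p = 4.75e-04). It was named after its values were seen. With median ratio scaling, 7 of the regulators were lower and 3 higher.

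IGF2 acts through receptors and is held by binding proteins, and the genes of this axis went in both directions. Of 17 genes of this axis 16 are listed and 14 were tested, with 8 higher, 5 lower and 1, IGF2BP3, not called (adjusted p = 0.0515), against 26.8% higher and 51.8% lower among all genes tested. IGF1R and INSR, the receptors that signal for IGF-II, fell from 14.8 ± 0.114 to 4.54 ± 0.235 and from 8.66 ± 0.242 to 2.89 ± 0.144 FPKM (SD, n = 3), while IGF2R, which clears IGF-II and shows imprinting in some people, rose from 16.5 ± 0.328 to 20.5 ± 0.389 FPKM (SD, n = 3). The binding proteins divided. IGFBP2 and IGFBP5 averaged 9.47 ± 0.407 and 5.80 ± 0.396 FPKM (SD, n = 3) among controls, and in the shSETD2 libraries IGFBP2 was at 0, 0.0240 and 0 FPKM and IGFBP5 listed at 0. IGFBP4, IGFBP6 and IGFBP7 rose from under 1 FPKM in every control library to 24.5 ± 1.58, 22.9 ± 1.09 and 75.3 ± 3.57 FPKM (SD, n = 3). IGFBP1 and IGFBP3 were below the level for testing, with IGFBP1 listed at 0 in every control library and at 0.286, 0.417 and 0.255 FPKM in the shSETD2 libraries, and IGFBP3 at 0, 0.197 and 0.0223 against 0.0613, 0.0606 and 0.0718 FPKM, with overlap. PAPPA, a protease that cleaves IGFBP4, was listed at 0 in every control library and at 3.03, 2.84 and 3.17 FPKM in the shSETD2 libraries, and its inhibitors STC1 and STC2 rose to 33.1 ± 0.561 and 54.8 ± 1.56 FPKM from 0.502 ± 0.0786 and 25.3 ± 0.524 FPKM (SD, n = 3). IGF2BP1, an RNA-binding protein named for IGF2 mRNA, fell from 54.2 ± 0.931 to 11.4 ± 0.389 FPKM (SD, n = 3).

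**Figure D4:**
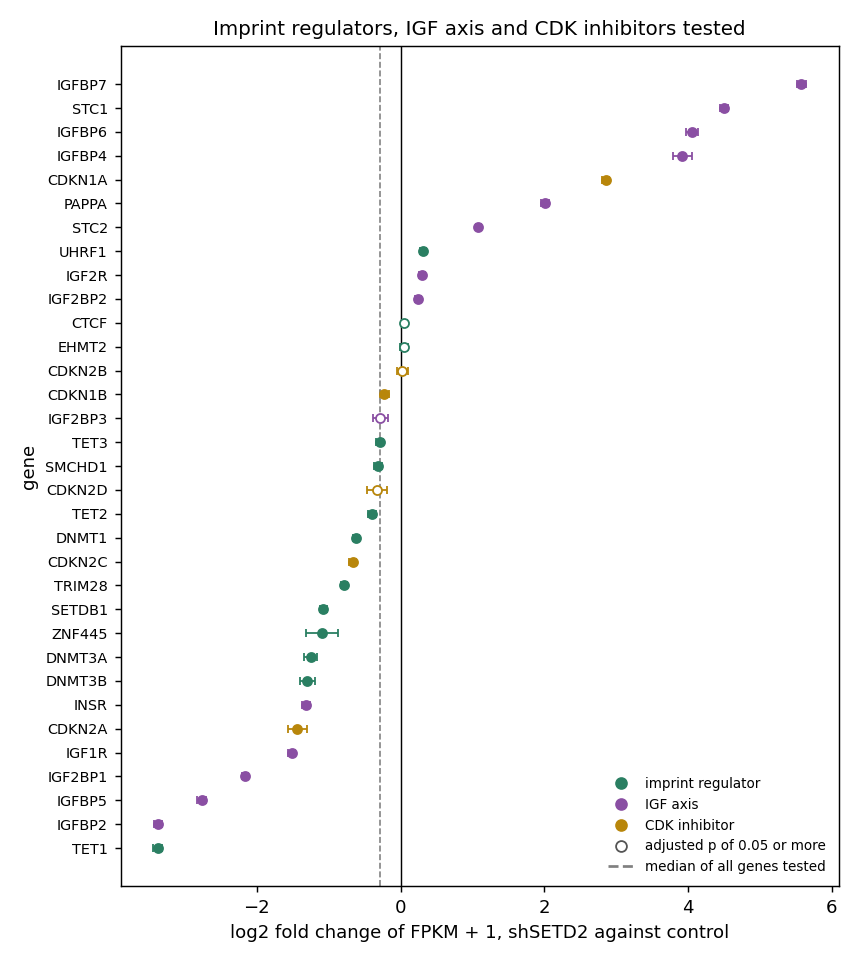
Log2 fold change of FPKM + 1 with its standard error for the tested imprint regulators, genes of the IGF axis and CDK inhibitors, shSETD2 against control. Filled points have an adjusted p under 0.05, and the dashed line marks the median of all genes tested at -0.29. TET1 and IGFBP2 lie lowest and IGFBP7 highest.

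Among the relatives of CDKN1C, the 6 other CDK inhibitors were all tested, with 1 higher, 3 lower and 2 not called. Of all genes tested, 26.8% were higher and 51.8% lower. CDKN1A, which encodes p21, rose from 14.7 ± 0.355 to 113.0 ± 6.07 FPKM (SD, n = 3, log2 fold change 2.86, adjusted p = 5.42e-08), opposite to CDKN1C. CDKN2A, which encodes p16 and ARF, fell from 18.2 ± 2.16 to 6.12 ± 1.09 FPKM (SD, n = 3, adjusted p = 7.79e-05). In FPKM, which is per length, CDKN1C was thus far below CDKN1A in both groups.

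The genes with the pattern most like each of the 4 tested genes were found by Pearson's r of log2(FPKM + 1) over the 6 libraries. For SNRPN it was MSMP (r = 1.000), for PEG10 CD9 (r = 1.000), for CDKN1C AC104581.1 (r = 0.997) and for IGF2 NSUN4 (r = 0.972). With 2 groups this measure mostly reads the difference between them, and 19.3% of all genes had an r of 0.95 or more with SNRPN, 19.3% with PEG10 and 24.8% with CDKN1C, against 0.0569% with IGF2.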

How the data were processed

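RNA-seq was compared between 3 control and 3 shSETD2 libraries. Reads were aligned by the authors with HISAT2 to the hg19 build (GRCh37), who then quantified genes with Ballgown and deposited 1 FPKM value per gene and library. Versions, the annotation, the use of strand and the filter behind the listed genes are not given in the sources used here. A second deposited table adds the authors' fold changes, p-values and q-values and was not used.

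Low FPKM values did not fall on steps of whole reads (at most 2.02% of 247 low genes had 1 common ratio between control libraries 1 and 2, within 0.2%), so the depth is unknown and precision rests on the spread over 3 libraries. The FPKM summed to between 218769 and 224603 per library. The labels do not say whether libraries came from separate cultures, so p-values may measure technical spread only.

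Genes with a mean of at least 0.5 FPKM (14068) were tested with limma, with an intensity trend, on log2(FPKM + 1) values (limma 3.58.1, R 4.3.3) and Benjamini-Hochberg adjustment over all of them, at a threshold of 0.05. Fold changes on this scale understate those of low genes, and folds by the means are ratios of mean FPKM. In simulated data for this comparison, over 14068 genes, 180 of 200 changed genes and 9 unchanged genes were called. Far fewer genes were changed there than were called in the real data, so these rates need not hold for the real calls. An exact permutation test of 3 libraries against 3 cannot go below 0.1.

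Alternatives were pseudocounts of 0.1 and 0.01, no filter or a filter at a mean of 5 FPKM, scaling by median ratio, by upper quartile or by quantiles, no trend, an ordinary linear model, the replicate number as a block, and each library left out. The 10 genes and all lists were chosen with earlier results of these data known. Named were all 10 genes, listed imprinted genes of their clusters, the 6 others with the largest called change, regulators, IGF genes and CDK inhibitors called with a log2 fold change of at least 1 in size, 5 fixed ones (IGF1R, IGF2R, CTCF, TRIM28 and DNMT1), and the nearest listed neighbours. Neighbours start within 500 kb. Promoter windows are from RefSeq (GRCh38.p14). Figures were made with Python 3.11.15 and matplotlib 3.10.9. One item is not reported here.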

Additional observations from a re-analysis of the deposited data

How the results depend on the processing

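Over 16 alternative settings, the log2 differences of SNRPN (3.76 to 10.33), PEG10 (2.45 to 5.53) and CDKN1C (-2.05 to -0.29) kept their direction and stayed past the threshold wherever they were tested. PEG10 and CDKN1C, with means under 5 FPKM, were not tested at the higher filter.

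IGF2 changed sign with quantile normalization (0.31), with median ratio scaling (0.18) and when control library 2 or 3 was left out (0.02 and 0.043), without passing the threshold. It passed it, as lower, without control library 1 (-0.23). Leaving out single libraries gave a range of -0.23 to 0.043 for IGF2 and of 1 to 2 for the number of the 10 genes that were lower.

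With a mean of at least 5 FPKM, fewer genes were tested, and the calls were 1 higher and 0 lower of the 10 genes, 5 higher and 3 lower of the other imprinted genes, 6 lower of the regulators and 18 of the neighbours. With no filter, more genes were tested, and 15 other imprinted genes were higher and 13 lower. The regulators had 3 higher with median ratio scaling and 2 higher with the ordinary linear model. Among 38 single genes outside the 10, 579 of 593 values kept their direction and side of the threshold. PPP1R9A and CTCF changed sign with quantile normalization (0.20 and -0.079), and CTCF passed the threshold with median ratio scaling (0.39, adjusted p = 9.08e-05) and the ordinary model. SNURF lost its call with the ordinary linear model (adjusted p = 0.0774) and without control library 1, 2 or 3 (0.0603, 0.0615 and 0.0597). UBE3A lost its call in 5 settings, among them without control library 1 or 3 (0.0877 and 0.0799). Median ratio scaling moved the median of all genes from -0.29 to -0.01 and the share of higher genes among calls from 34.1% to 49.6%.

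Libraries with the same number did not deviate together (r = -0.02, 0.02 and -0.01 across genes for numbers 1 to 3). The values thus gave no sign of pairing by number, but they cannot exclude that such libraries were prepared together. With the replicate number as a block, 2 of the 10 genes were higher and 1 lower, as without it, and of the other imprinted genes 15 were higher and 7 lower. Depth is unknown, so values near 0, such as those of MEST and H19, cannot be given a detection limit.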
